A study of Mus musculus with 36 samples.

Results

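Of the 36128 gene models in a table of mouse heart expression, 10 are the transcription factor gene Nfe2l2, which encodes NRF2, and 9 genes known as its targets: Hmox1, Nqo1, Gsta1, Gsta2, Srxn1, Txnrd1, Gclc, Gclm and Slc7a11. They were selected on symbol. The only measured value in the rule was mean FPKM, by which a row was to be chosen where a symbol had several, and since each symbol had 1 row it decided nothing. The names were put forward with earlier results of these data in view, so the calls below describe the members within a fit over the whole table and are not independent evidence of a direction.

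RNA sequencing covered 36 libraries of CD-1 mouse heart in 16 groups, all from Trizol total RNA. Cardiomyocytes isolated on Miltenyi columns gave 4 groups of 3 libraries, from postnatal day 0 (P0), postnatal day 4 (P4), and day 7 after a sham operation or a resection. Whole ventricular myocardium gave 8 groups of 2 libraries, from P0, P4, P7 and adult hearts, and from days 1 and 7 after sham or resection. Dissociated adult cardiomyocytes kept as explants gave 4 groups of 2 libraries, at 0, 24, 48 and 72 h. The labels name no transgene or drug, give neither the adult age nor the age at surgery, and do not say that replicates came from separate animals. The p-values therefore measure the spread between these libraries only, which may be technical.

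NRF2 is a basic leucine zipper factor that KEAP1, an adaptor of a CUL3 ubiquitin ligase, marks for degradation in unstressed cells. When oxidants or electrophiles modify KEAP1, NRF2 accumulates, pairs with a small MAF protein and binds antioxidant response elements near genes for haem breakdown, quinone reduction, glutathione synthesis and conjugation, and thioredoxin recycling. Much of this control acts on NRF2 protein, which RNA does not measure. In the heart these enzymes are known for limiting oxidative damage after ischaemia and reperfusion.

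Levels are FPKM, fragment numbers scaled to transcript length and to the size of the library, so they can be compared between genes. Changes are differences of log2(FPKM + 1), which understate the change of low genes. They were tested with limma over every gene that reached 1 FPKM in at least 2 libraries of the fit, with Benjamini-Hochberg adjustment, and a gene was called where its adjusted p was under 0.05. Between 10454 and 13134 gene models per library reached 1 FPKM, and the sequencing depth of each library is unknown. The 5 cardiomyocyte marker genes in the table summed to 10750 to 15980 FPKM in the 0 h explants, 2859 to 8270 FPKM in the isolated groups and 7483 to 15400 FPKM in ventricle. In these markers the isolated groups thus lay mostly below whole ventricle. Their fibroblast and erythroid markers summed to as much as 2049 and 72170 FPKM, both at day 7 after resection. At P0 and P4 the mean fibroblast sums were 242 and 255 FPKM, against 847 and 1091 FPKM in ventricle. Macrophage sums were 2.43 and 4.58 against 47.4 and 44.6 FPKM, and endothelial sums 41.0 and 123 against 244.7 and 277 FPKM. Erythroid sums were 14260 and 1050 against 1309 and 1536 FPKM. The markers thus differ between lists and groups and do not by themselves show the isolated cells to be purified cardiomyocytes. The alpha myosin heavy chain gene Myh6 is listed at 0 in the second 0 h explant library, against a median of 1696 FPKM over all 36, and results that rest on that library are also given without it. In these bulk samples fewer cells of a type and less RNA per cell cannot be told apart.

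The promoters are shown first because the members share a regulator with a known recognition sequence. RefSeq's table for GRCm38.p6 gave 300-base windows, 250 bases before to 50 after a gene's start, for 8 of the 10 genes and 10 start sites in all, without Hmox1 and Gclc. The 9-base core of the antioxidant response element was searched as TGACNNNGC or TGAGNNNGC on both strands. At least 1 match lay in 5 of these 10 windows, from 5 genes, where 27.8% of all 32851 promoters in the table held one. A match is a description of letters, not of a bound site. The matches are printed 5′ to 3′ in the orientation of the core, with 10 bases on each side and the core in capitals.
Nfe2l2: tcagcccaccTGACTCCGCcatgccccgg
Srxn1 distal: ccagagaggaTGAGTCGGCtctcagtaga
Srxn1 proximal: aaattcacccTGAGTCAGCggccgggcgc
Srxn1 past the start: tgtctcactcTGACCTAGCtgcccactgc
Txnrd1: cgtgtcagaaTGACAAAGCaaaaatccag
Gclm: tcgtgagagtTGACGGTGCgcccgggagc
Slc7a11: aactccagctTGAGAAAGCgccaacatta
Srxn1 held 3 matches, where 4.68% of all promoters held 2 or more. Counted along the gene from its start, the first base of these matches lay at -240 in Nfe2l2, at -158, -45 and 29 in Srxn1, at -92 before 1 of the 3 starts of Txnrd1, at -134 in Gclm and at -97 in Slc7a11. The cores of Nfe2l2 and the proximal Srxn1 match read along the gene, and the other 5 read on its opposite strand. The windows of Nqo1, Gsta1 and Gsta2 held no match to these letters.

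The 250 bases before the Srxn1 start (chr2:152105274-152105523, plus strand, GRCm38.p6) are printed because they hold 2 of its matches, in capitals. Those of Gsta1 (chr9:78230419-78230668, plus strand) and Gsta2 (chr9:78347146-78347395, minus strand) are printed because the levels of these neighbouring genes moved together.
Srxn1: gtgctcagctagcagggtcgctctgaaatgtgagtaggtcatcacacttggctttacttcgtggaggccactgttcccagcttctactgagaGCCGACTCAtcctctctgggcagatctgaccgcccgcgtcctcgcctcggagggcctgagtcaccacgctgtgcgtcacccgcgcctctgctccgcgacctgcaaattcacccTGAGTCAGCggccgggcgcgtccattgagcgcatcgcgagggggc
Gsta1: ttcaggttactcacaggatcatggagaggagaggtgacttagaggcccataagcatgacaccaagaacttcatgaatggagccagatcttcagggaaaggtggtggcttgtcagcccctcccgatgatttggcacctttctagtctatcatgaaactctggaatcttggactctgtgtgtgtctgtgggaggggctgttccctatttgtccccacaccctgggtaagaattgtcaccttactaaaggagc
Gsta2: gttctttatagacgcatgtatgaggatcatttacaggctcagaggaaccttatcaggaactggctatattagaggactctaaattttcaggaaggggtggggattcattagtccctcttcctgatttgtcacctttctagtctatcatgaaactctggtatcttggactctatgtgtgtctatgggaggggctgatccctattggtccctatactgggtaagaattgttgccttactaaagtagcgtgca
The 300-base windows of Gsta1 and Gsta2 were identical at 238 of 316 aligned positions, or 75.3%. Their transcripts are also alike. In the GENCODE vM21 transcripts, 46.6% of the 50-base runs of Gsta1 also occurred in Gsta2, and 90.5% of them occurred in some other gene, most often Gm3776. For Gsta2, 49.8% of runs occurred in another gene. Levels of Gsta1 and Gsta2 are therefore uncertain between these copies and are also given as a sum. The other 8 members shared between 0 and 3.92% of their runs.

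In the mm9 coordinates of the deposited table, Nfe2l2 (ENSMUSG00000015839) lies on chromosome 2 at 75513569 to 75542698 and Srxn1 (ENSMUSG00000032802) on the same chromosome at 151931251 to 151937112. Hmox1 (ENSMUSG00000005413) and Nqo1 (ENSMUSG00000003849) lie on chromosome 8 at 77617489 to 77624495 and 109912124 to 109927106. Chromosome 9 holds Gclc (ENSMUSG00000032350, 77602341 to 77642292), Gsta1 (ENSMUSG00000074183, 78078462 to 78090491) and Gsta2 (ENSMUSG00000057933, 78178824 to 78203595). Chromosome 3 holds Slc7a11 (ENSMUSG00000027737, 50168857 to 50247535) and Gclm (ENSMUSG00000028124, 121948474 to 121972902). Txnrd1 (ENSMUSG00000020250) lies on chromosome 10 at 82296695 to 82360469.

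Across the 16 groups, the cultured explants stood above every other preparation. For 8 of the 10 genes all 6 cultured libraries (24, 48 and 72 h) lay above all 30 others. The exceptions were Nfe2l2, whose lowest cultured library (21.3 FPKM) lay below the highest of the others (26.0 FPKM), and Gclc (5.996 against 6.21 FPKM). The share of all genes with such a separation was not counted. At 72 h against 0 h alone, 62.1% of all genes tested in explants were higher without overlap. The highest group mean was at 72 h for 8 genes and at 48 h for Srxn1 and Txnrd1. Among the 13 groups outside culture, between 7 and 12 of the 12 neighbouring pairs of groups overlapped in range for each gene. For Nfe2l2, Gsta1 and Gsta2 all 12 pairs overlapped, so their order of groups is not resolved step by step.

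**Figure D1:**
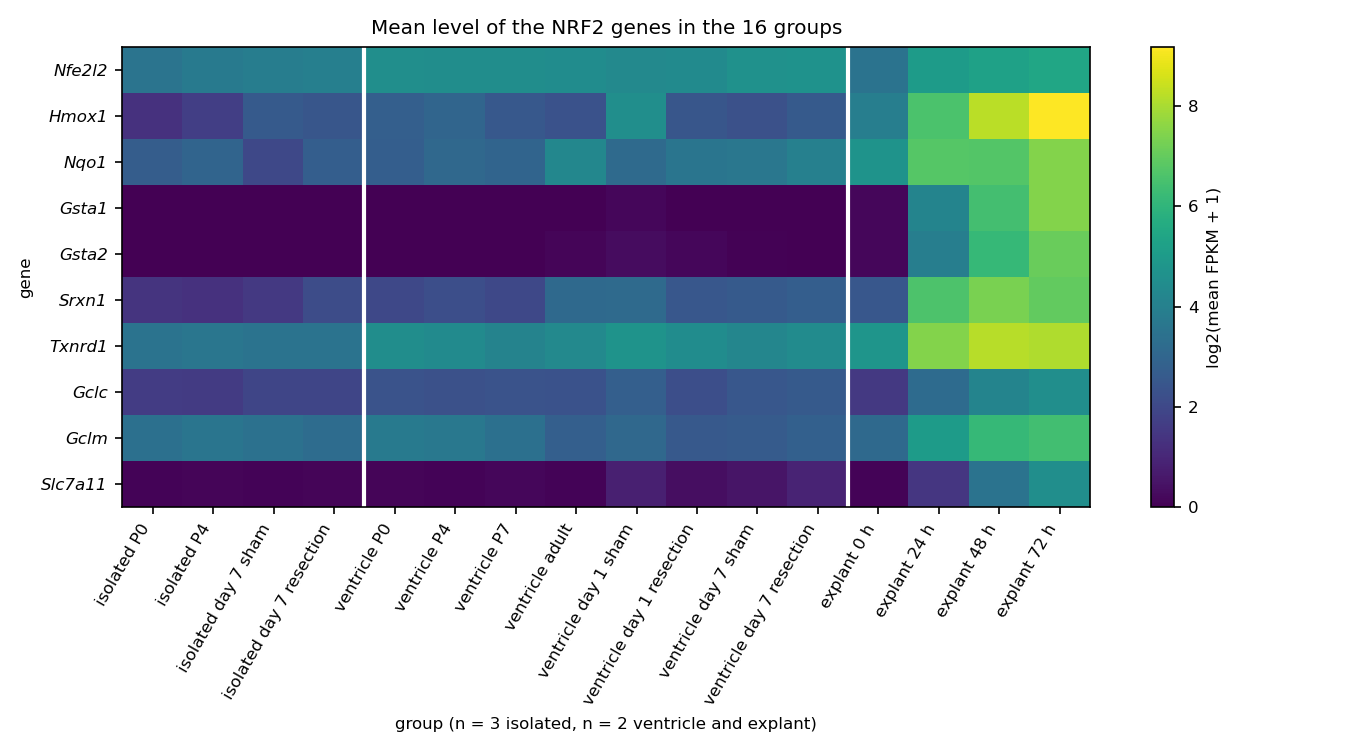
Mean level of each of the 10 genes (rows) in each of the 16 groups (columns), as log2(mean FPKM + 1) on the colour scale; white lines separate isolated cardiomyocytes (n = 3 per group), whole ventricle (n = 2) and explants (n = 2). The 3 cultured explant groups are the brightest columns, Gsta1 and Gsta2 are near 0 in every other group, and Hmox1 has 1 bright ventricle column, at day 1 after sham.

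In explants the question was how adult cardiomyocytes change over 3 days of culture. All 10 genes rose: 9 were called higher at 24 h, and all 10 at 48 h and at 72 h. None was called lower. Over all 12246 genes tested, 15.4% were called higher at 24 h, 35% at 48 h and 46.8% at 72 h. The 24 h share rests on all 4 libraries, and with any 1 of them left out it was 0.263% to 1.71%. At 72 h the libraries of all 10 genes lay above those at 0 h without overlap, as did those of 62.1% of all genes. The median change of the members was 2.35, 3.38 and 3.85 on the log2 scale at 24, 48 and 72 h, beside medians of 0.37, 0.59 and 0.76 over all tested genes. The 3 comparisons share the 0 h libraries. Gsta1, Gsta2 and Slc7a11 were under 1 FPKM at 0 h and passed the filter only through their cultured libraries, so for them a difference was a condition of being tested.

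The balance of higher and lower genes depended on scaling. Both scalings bring the middle of all genes near 0 by construction, so a shift of scale and a broad rise cannot be told apart. With libraries rescaled by their median ratio, the median of all genes at 72 h became 0.02 and that of the members 2.998. Quantile normalization gave 0.14 and 3.43. Of all genes called at 72 h, 83.8% were higher as deposited, 41.7% with median-of-ratios scaling and 51.2% once quantile-normalized. At 24 h these shares were 85.8%, 37.2% and 48.5%, and at 48 h they were 83%, 39.9% and 49%. The direction of all 10 members at all 3 times was the same under both scalings. With 1 library of either time left out, between 2 and 5 members were called at 24 h, in fits that called 56 to 261 of all genes against 2194 with every library. Without the 0 h library in which Myh6 is at 0, 5 were called at 24 h and 9 at both 48 and 72 h, the lost gene at the later times being Nfe2l2.

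**Figure D2:**
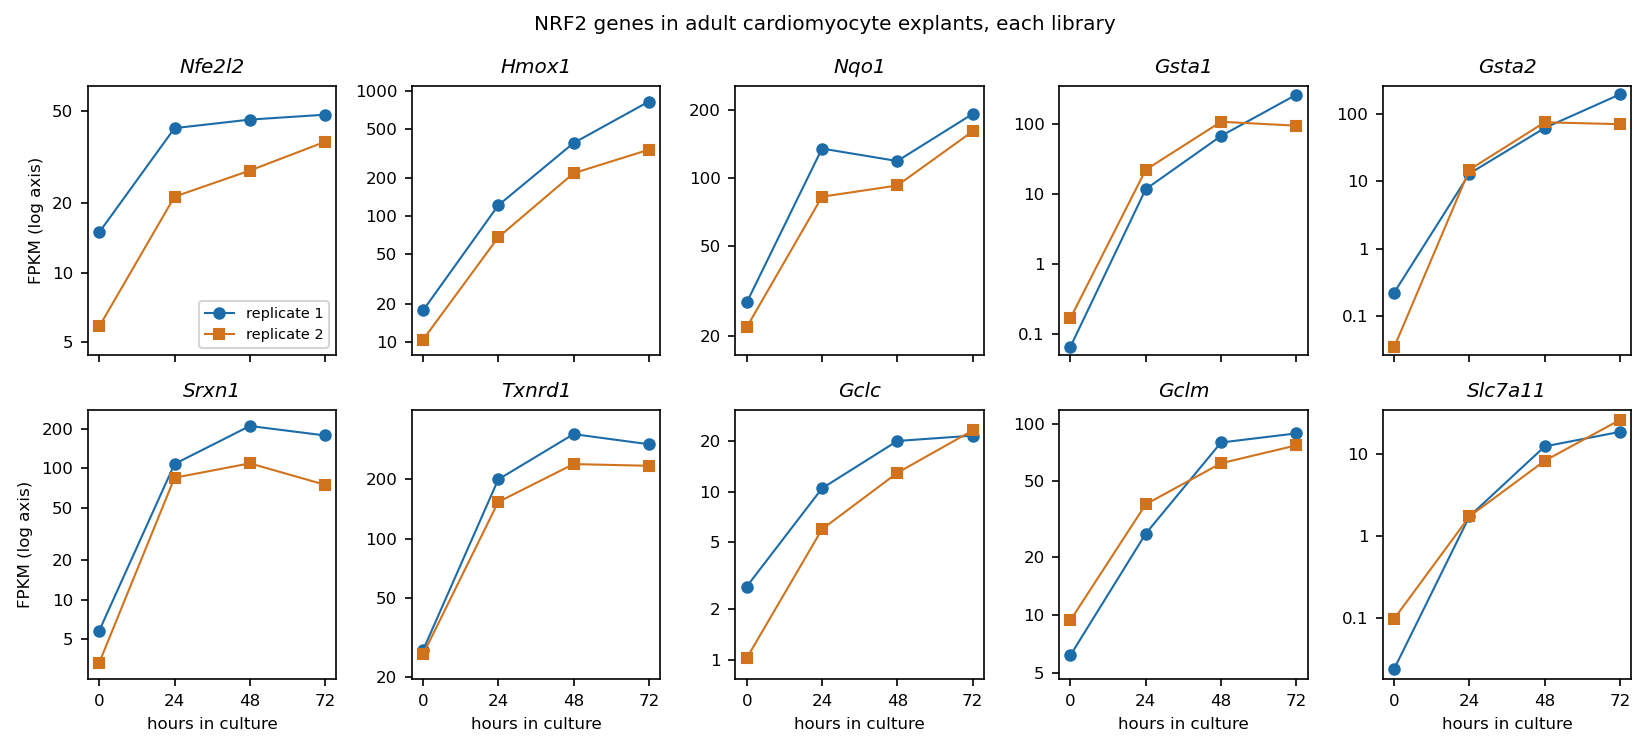
FPKM of each gene (log axis, 1 panel per gene) against hours in culture, with the libraries numbered 1 as circles and those numbered 2 as squares. Both series rise from 0 to 24 h in every panel. From 48 to 72 h both rise for Nfe2l2, Hmox1, Nqo1, Gclc, Gclm and Slc7a11. Gsta1 and Gsta2 rise then only in the libraries numbered 1, and Srxn1 and Txnrd1 are no higher at 72 h than at 48 h.

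Nfe2l2, the regulator, changed least of the 10 at 72 h. Its level was 14.95 and 5.86 FPKM at 0 h, 42.1 and 21.3 FPKM at 24 h, 45.8 and 27.6 FPKM at 48 h, and 48.1 and 36.8 FPKM at 72 h. Within each replicate number the level was above 0 h at every later time, by 2.81 and 3.64 times at 24 h and by 3.22 and 6.27 times at 72 h. The difference from 0 h was 1.57 ± 0.49 (SE) at 24 h and did not pass the test (adjusted p = 0.0634). It was called at 48 h (1.81, adjusted p = 0.0227) and 72 h (2.04, adjusted p = 0.0104). Both calls were lost with median-of-ratios scaling, where the change was 1.14 at 48 h (adjusted p = 0.0972) and 1.18 at 72 h (adjusted p = 0.078). The 48 h call was also lost with quantile normalization (1.24, adjusted p = 0.0697) and with no filter (adjusted p = 0.0798). With replicate number as a block the 24 h difference was also called (adjusted p = 0.00229).

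Hmox1 encodes haem oxygenase 1, the stress-inducible enzyme that breaks haem down to biliverdin, iron and carbon monoxide. It stood at 17.8 and 10.4 FPKM at 0 h and reached 122 and 68.0 FPKM at 24 h, 383 and 220.2 FPKM at 48 h, and 820.5 and 339 FPKM at 72 h. Each time point lay above the one before in both replicate numbers, and only the 48 and 72 h ranges overlapped. The 72 h libraries were 46.2 and 32.7 times their 0 h counterparts. The change was 2.66 ± 0.51 at 24 h (adjusted p = 0.0188) and 5.18 ± 0.51 at 72 h (adjusted p = 0.000587). The 24 h call was lost with no filter (adjusted p = 0.0656). It was also lost with any 1 of the 4 libraries left out, where the change was 2.24 to 3.08. At 72 h the Hmox1 mean, 579.8 ± 340.3 FPKM (SD, n = 2), was the highest of the 10 genes in any group.

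Nqo1 encodes a quinone reductase that moves 2 electrons at once and so avoids reactive semiquinones. Its level was 28.2 and 21.9 FPKM at 0 h, 135 and 82.7 FPKM at 24 h, 119 and 92.7 FPKM at 48 h, and 192 and 161 FPKM at 72 h. It was the member with the highest 0 h level after Txnrd1, and the 24 and 48 h libraries overlapped. The change was 2.05 ± 0.29 at 24 h (adjusted p = 0.0109) and 2.77 at 72 h (adjusted p = 0.000692). Without the 0 h library in which Myh6 is at 0, the 24 h calls of Nqo1, Hmox1, Gclc and Slc7a11 were lost.

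Gsta1 and Gsta2 encode alpha class glutathione transferases, which join glutathione to electrophiles. Gsta1 rose from 0.0657 and 0.168 FPKM at 0 h to 11.6 and 21.9 FPKM at 24 h, 66.6 and 106 FPKM at 48 h, and 259 and 93.4 FPKM at 72 h. Gsta2 rose from 0.222 and 0.0343 FPKM to 13.1 and 15.01, 62.7 and 76.2, and 199 and 71.4 FPKM at the same times. Summed over both, the level was 0.288 and 0.202 FPKM at 0 h and 457 and 165 FPKM at 72 h. In the libraries numbered 1 the sum kept rising, while in those numbered 2 it was 182 FPKM at 48 h and lower at 72 h. The changes at 72 h were 7.13 for Gsta1 (adjusted p = 0.000252) and 6.74 for Gsta2 (adjusted p = 0.000201), the largest among the members. Both genes were tested only because of their cultured libraries, so a difference from 0 h was a condition of being tested. Since their transcripts are alike, these are not 2 separate results. In the other 28 libraries Gsta1 was above 0 in 2 and Gsta2 in 5, and neither exceeded 0.457 FPKM.

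Srxn1 encodes sulfiredoxin, which repairs overoxidised peroxiredoxins, and Txnrd1 the cytosolic thioredoxin reductase. Srxn1 was at 5.83 and 3.33 FPKM at 0 h, 108 and 84.7 FPKM at 24 h, 209.6 and 109 FPKM at 48 h, and 177.5 and 74.9 FPKM at 72 h. It showed the largest step of the first day among the genes with more than 1 FPKM at 0 h, 18.5 and 25.4 times within replicate number. Its 72 h libraries spanned the range of the 24 h ones and part of that of the 48 h ones, while the 24 and 48 h ranges did not overlap. Txnrd1 was at 27.3 and 26.0 FPKM at 0 h, 200.2 and 154 FPKM at 24 h, 339.6 and 239 FPKM at 48 h, and 302 and 235 FPKM at 72 h. At 24 h the changes were 4.15 ± 0.48 for Srxn1 (adjusted p = 0.00657) and 2.68 ± 0.26 for Txnrd1 (adjusted p = 0.00437). Txnrd1 was the only member to keep its 24 h call with any 1 of the 4 libraries left out.

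Gclc and Gclm encode the catalytic and the modifier subunit of glutamate-cysteine ligase, the rate-limiting enzyme of glutathione synthesis, and Slc7a11 the xCT chain of the cystine importer that supplies its cysteine. Gclc was at 2.73 and 1.02 FPKM at 0 h, 10.5 and 5.996 FPKM at 24 h, 20.1 and 13.0 FPKM at 48 h, and 21.6 and 23.2 FPKM at 72 h. Gclm was at 6.17 and 9.40 FPKM at 0 h, 26.6 and 37.9 FPKM at 24 h, 79.7 and 62.1 FPKM at 48 h, and 88.9 and 77.0 FPKM at 72 h. Both subunits were above 0 h in every later library, and the mean level of Gclm was above that of Gclc at every time. At 72 h the changes were 3.09 for Gclc (adjusted p = 0.00104) and 3.28 for Gclm (adjusted p = 0.00041). Slc7a11 was at 0.0243 and 0.0990 FPKM at 0 h, 1.74 and 1.74 FPKM at 24 h, 12.4 and 8.26 FPKM at 48 h, and 18.6 and 26.0 FPKM at 72 h. Its libraries did not overlap between any 2 times, and the change was 1.37 at 24 h (adjusted p = 0.0188) and 4.44 at 72 h (adjusted p = 0.00018). Like Gsta1 and Gsta2, Slc7a11 was tested only because of its cultured libraries. With no filter the 24 h calls of Slc7a11 (adjusted p = 0.0524) and Gclc (adjusted p = 0.0822) were lost. That of Gclc was also lost with quantile normalization (adjusted p = 0.064). Both 24 h calls were lost with any 1 of the 4 libraries left out.

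The 72 h explants were also compared with those at 24 h. Hmox1 (2.52, adjusted p = 0.029), Gsta1 (3.20, adjusted p = 0.0157), Gsta2 (2.999, adjusted p = 0.0118), Gclm (1.35, adjusted p = 0.0299) and Slc7a11 (3.07, adjusted p = 0.00306) were called higher, 5 of 10, where 7.06% of all genes were. Nfe2l2 (0.47, adjusted p = 0.535), Nqo1 (0.73, adjusted p = 0.139), Srxn1 (0.27, adjusted p = 0.725), Txnrd1 (0.60, adjusted p = 0.162) and Gclc (1.38, adjusted p = 0.0603) did not pass. Differences between members were not tested, and the change of Gclc was as large as that of Gclm. With no filter Hmox1 (adjusted p = 0.0951) and Gsta1 (adjusted p = 0.0598) lost their calls. Hmox1, Gsta1 and Gsta2 also lost theirs in some of the fits with 1 library left out. Gclm lost its call with median-of-ratios scaling (0.96, adjusted p = 0.0997), with quantile normalization (1.09, adjusted p = 0.0696), with no filter (adjusted p = 0.0757) and with any 1 of the 4 libraries left out. With the replicate number as a block, which the explant libraries support, 8 of 10 were called higher, where 27.5% of all genes were, the added genes being Nqo1 (adjusted p = 0.0111), Txnrd1 (adjusted p = 0.0197) and Gclc (adjusted p = 0.00659). With 1 library left out, between 1 and 4 members were called, and Slc7a11 was among them each time, while 58 to 670 of all genes were called against 1246. Of all genes called, 69.3% were higher as deposited, 27.5% with median-of-ratios scaling and 37.4% once quantile-normalized.

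Other genes of the pathway were followed through 5 lists of 72 genes, 70 of them in the table and 61 tested in explants. At 72 h 37 of the 61 were called higher and 6 lower, where 46.8% and 9.07% of all genes were, with a median change of 1.02 beside 0.76 over all genes. The counts of the single lists below stand beside the same shares of all genes. Among other known NRF2 targets 14 of 18 were higher and none lower, with a median of 1.93. Pgd, of the oxidative pentose phosphate route that makes NADPH, rose from 11.6 to 232.8 FPKM (4.201, adjusted p = 0.000138), and Ephx1, the microsomal epoxide hydrolase, from 3.69 to 96.2 FPKM (4.39, adjusted p = 0.000299). Among glutathione genes 15 of 20 were higher and 2 lower, with a median of 1.31. Slc3a2, the partner chain of Slc7a11 in the cystine importer, rose from 8.25 to 60.2 FPKM by 24 h (2.69, adjusted p = 0.0088). Osgin1, an oxidative stress-induced growth inhibitor, rose from 2.21 to 21.3 FPKM by 24 h (2.81, adjusted p = 0.00427) and then fell to 9.74 FPKM at 72 h (-1.07 against 24 h, adjusted p = 0.0419). Taldo1, of the non-oxidative pentose phosphate route, rose from 51.9 FPKM at 24 h to 273 FPKM at 72 h (2.37, adjusted p = 0.00596), and the glutathione transferase gene Gsta4 from 81.1 FPKM at 24 h to 714.6 FPKM at 72 h (3.14, adjusted p = 0.00229). The microsomal transferase gene Mgst3 fell from 99.2 to 24.3 FPKM (-2.09, adjusted p = 0.00759).

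Thioredoxin and peroxiredoxin genes moved both ways: 2 of 10 were higher and 3 lower at 72 h, with a median of -0.04. Txn1, thioredoxin itself, rose from 20.6 to 101 FPKM (2.24, adjusted p = 0.000437), and Prdx6 from 89.8 to 417.5 FPKM (2.21, adjusted p = 0.000692). Txnip, whose product inhibits thioredoxin, fell from 187.5 to 64.2 FPKM (-1.92, adjusted p = 0.0431), and Prdx2 from 128.5 to 57.5 FPKM (-1.13, adjusted p = 0.0117). Of 4 superoxide dismutase and catalase genes, 2 were higher and 1 lower. Of 9 regulators 4 were higher and none lower. Sqstm1, whose product p62 can draw KEAP1 into autophagy, rose from 255 to 3082 FPKM (3.62, adjusted p = 0.000227), and the small MAF gene Mafg from 7.89 to 59.7 FPKM (2.76, adjusted p = 0.00135). Keap1 was at 10.3 FPKM at 0 h and 17.0 FPKM at 72 h and did not pass (0.78, adjusted p = 0.195).

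**Figure D3:**
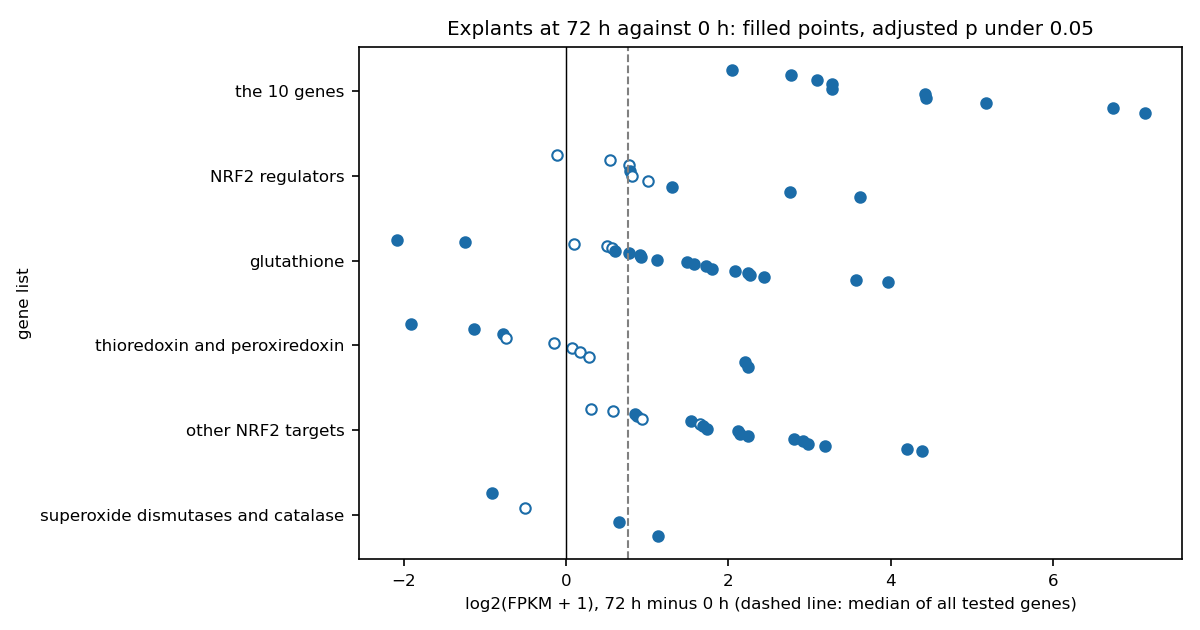
Difference in log2(FPKM + 1) between explants at 72 h and 0 h (x axis) for the 10 genes and the tested genes of the 5 pathway lists, 1 point per gene, filled where the adjusted p is under 0.05; the dashed line is the median of all tested genes, 0.76. All 10 members lie to the right of 2.0, while the thioredoxin and peroxiredoxin list is spread on both sides of 0.

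Cell type markers moved over the same hours. The 5 cardiomyocyte markers summed to 9049 to 9551 FPKM at 24 h and 2179 to 2601 FPKM at 72 h, and 4 of the 5 were called lower at 72 h. The 11 macrophage markers summed to 2.40 to 2.58 FPKM at 0 h, 3.66 to 6.79 FPKM at 24 h, 20.6 to 42.0 FPKM at 48 h and 84.0 to 137 FPKM at 72 h. The 3 that were tested rose, Cd68 from 0.739 to 98.6 FPKM, Csf1r from 0.263 to 6.98 FPKM and Lyz2 from 0.554 to 3.64 FPKM. All 11 had means under 1 FPKM at 0 h, so these 3 needed cultured libraries to pass the filter. A level of 1 FPKM or more in culture was thus a condition of being tested. The remaining 8 stayed under 1 FPKM at 72 h, among them Emr1, Cd14, C1qb, Mrc1 and Aif1. Neutrophil markers summed to at most 0.0617 FPKM in explants, fibroblast markers went from 10.8 to 17.8 FPKM at 0 h to 19.3 to 23.1 FPKM at 72 h, and endothelial markers from 27.2 to 47.9 FPKM to 8.42 to 21.8 FPKM. The part of these markers in the rise of the members was not tested.

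In whole ventricle the development comparisons asked how the genes differ between P0 and later ages. Gsta1, Gsta2 and Slc7a11 were below the filter there, which left 7 of the 10 genes. None of the 7 was called at P4, where 1.35% of all 14306 genes were called in either direction and 1773 had an unadjusted p under 0.05. None was called at P7, where 12.6% were called and 4088 had an unadjusted p under 0.05. In adult ventricle 2 of the 7 were called higher, where 13.4% of all genes were, and 1 lower, where 43.6% were. The median change in the adult was -0.07 for the members and -0.36 for all genes.

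Nqo1 was at 5.87 and 5.604 FPKM at P0, 6.45 and 8.66 FPKM at P4, 7.67 and 5.72 FPKM at P7, and 20.8 and 15.3 FPKM in the adult. The adult libraries stood above all 6 younger ones (1.49 ± 0.19 against P0, adjusted p = 3.95e-05). Srxn1 was at 3.15 and 2.90 FPKM at P0 and 6.78 and 8.65 FPKM in the adult, with no overlap between the ages (1.11 ± 0.16, adjusted p = 7.62e-05). Gclm went the other way, from 12.4 and 12.9 FPKM at P0 over 10.9 and 12.4 FPKM at P4 and 9.67 and 9.12 FPKM at P7 to 5.85 and 5.77 FPKM in the adult (-1.01 ± 0.16, adjusted p = 0.000171). Its partner Gclc, at 4.32 and 3.83 FPKM at P0 and 3.75 and 4.17 FPKM in the adult, did not pass (-0.03, adjusted p = 0.826). Nfe2l2 was at 23.0 and 21.0 FPKM at P0 and 21.0 and 20.7 FPKM in the adult (-0.07, adjusted p = 0.632).

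The 3 adult calls held their direction under both scalings, but scaling turned the sign of Nfe2l2, Gclc and Txnrd1. After median-of-ratios scaling the median of all genes was 0.00, and Nfe2l2 (0.37, adjusted p = 0.0137) and Gclc (0.34, adjusted p = 0.0339) were called higher in the adult. Quantile normalization called Gclc higher as well (0.40, adjusted p = 0.0183). Txnrd1, at -0.17 as deposited (adjusted p = 0.347), was at 0.28 (adjusted p = 0.0897) and 0.09 (adjusted p = 0.568) under these scalings, without a call. Of all genes called, 23.4% were higher in the adult as deposited, 53.5% with median-of-ratios scaling and 47.5% once quantile-normalized. For P7 these shares were 34.6%, 59.5% and 55.2%, and for P4 43%, 54.6% and 54.5%. Of the pathway lists 28 of 63 genes were higher and 12 lower in the adult, where 13.4% and 43.6% of all genes were. Sod3, the extracellular superoxide dismutase, was at 9.48 FPKM against 0.756 FPKM at P0 (2.59, adjusted p = 1.08e-07), and the endoplasmic reticulum peroxiredoxin gene Prdx4 at 9.02 against 35.7 FPKM (-1.86, adjusted p = 1.81e-05). The transferase gene Gsta3 was at 5.33 against 0.383 FPKM (2.16, adjusted p = 8.49e-06) and Txnip at 94.0 against 299 FPKM (-1.67, adjusted p = 0.000495). By P7 4 of 63 were higher, near the 4.35% of all genes, with the glutathione conjugate exporter Abcc1 (1.45, adjusted p = 0.00306) and Ephx1 (0.80, adjusted p = 0.0169) among them, and Txnip (-1.25, adjusted p = 0.0182) and Gpx3 (-1.001, adjusted p = 0.0171) were the 2 lower, where 8.21% of all genes were. None of the 63 was called at P4. Macrophage markers summed to 41.6 to 53.3 FPKM at P0 and 176 to 229 FPKM in the adult, with 9 of 11 called higher, and their part in these differences was not tested.

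The resection comparison asked how the operated ventricle differs from its sham control. At day 1, 4 of the 7 tested genes were lower after resection than after sham, where 8.88% of all genes were called lower, and none was called higher. The libraries of 5 genes lay below sham without overlap, as did those of 39% of all genes. The median change was -0.54 for the members and -0.16 for all genes. Hmox1 was at 15.7 and 29.2 FPKM after sham and at 3.24 and 5.81 FPKM after resection. The sham libraries were the high ones: the 8 unoperated ventricle libraries lay between 3.29 and 7.82 FPKM, the range that also held the resected libraries apart from the 3.24 FPKM of 1 of them. The mean was 22.5 ± 9.55 FPKM after sham and 4.52 ± 1.82 FPKM after resection (SD, n = 2 each), a change of -2.07 ± 0.28 (adjusted p = 0.00154).

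Srxn1 showed the same order with a smaller step, at 7.06 and 8.78 FPKM after sham and 3.94 and 5.34 FPKM after resection (-0.67 ± 0.16, adjusted p = 0.0223). Gclc was at 5.46 and 6.21 FPKM after sham and 3.68 and 3.54 FPKM after resection (-0.57 ± 0.12, adjusted p = 0.0134). Gclm was at 7.14 and 8.15 FPKM after sham and 5.57 and 4.40 FPKM after resection (-0.54 ± 0.16, adjusted p = 0.0497). Its call was lost with a pseudocount of 0.1 (adjusted p = 0.0521) and with no filter (adjusted p = 0.0799). Replicate number as a block (adjusted p = 0.0623), both scalings, and leaving out any 1 of the 4 libraries also lost it. For each of these 3 genes the sham libraries lay above the resected ones. Txnrd1 (25.5 and 25.8 FPKM after sham, 17.9 and 23.8 FPKM after resection) did not pass (-0.30, adjusted p = 0.197), nor did Nfe2l2 (0.07, adjusted p = 0.766). Nqo1 lay higher after resection, at 9.65 and 11.96 FPKM against 7.35 and 8.90 FPKM, without passing (0.37, adjusted p = 0.228). Slc7a11, below the filter, was at 0.808 and 0.700 FPKM after sham and 0.215 and 0.338 FPKM after resection.

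Hmox1 kept its day 1 call under every alternative tried, and under both scalings and without the second day 1 sham library it was the only member called. After quantile normalization its change was -1.71 (adjusted p = 0.00378), while Srxn1 (-0.43, adjusted p = 0.109), Gclc (-0.33, adjusted p = 0.138) and Gclm (-0.30, adjusted p = 0.319) kept their direction and lost the call. Of all genes called at day 1, 13.5% were higher after resection as deposited, 45.5% with median-of-ratios scaling and 49.3% once quantile-normalized. Of the 63 pathway genes tested, 9 were lower and 1 higher, where 8.88% and 1.38% of all genes were. The lower ones included Txn1, at 95.0 ± 83.7 FPKM after resection and 220.6 ± 30.6 FPKM after sham (-1.54, adjusted p = 0.0424), the aldo-keto reductase gene Akr1b8, at 3.46 ± 3.51 and 9.52 ± 0.912 FPKM (-1.50, adjusted p = 0.0324), and Gss, which completes glutathione synthesis, at 9.95 against 15.97 FPKM (-0.66, adjusted p = 0.0405). Gpx4, the lipid peroxide reductase, was higher, at 39.4 against 24.9 FPKM (0.66, adjusted p = 0.0128).

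Immune cell markers differed in the same direction at day 1. Neutrophil markers summed to 89.9 to 161.5 FPKM after sham and 31.0 to 49.0 FPKM after resection, beside 14.6 to 15.7 FPKM at P0, and 3 of 6 tested were lower. Macrophage markers summed to 94.9 to 132.5 FPKM after sham and 44.2 to 49.5 FPKM after resection, and 5 of 11 were lower: Cd68, Emr1, Cd14, Lyz2 and Fcgr1. Of all genes 8.88% were called lower. Endothelial markers summed to 215.9 to 220.2 FPKM after sham and 139.7 to 197 FPKM after resection, and 1 of 7 was lower. Cardiomyocyte markers, with sums of 9269 to 11680 FPKM and 10380 to 11240 FPKM, gave no call, nor did fibroblast and erythroid markers. The part of these cells in the member differences was not tested.

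**Figure D4:**
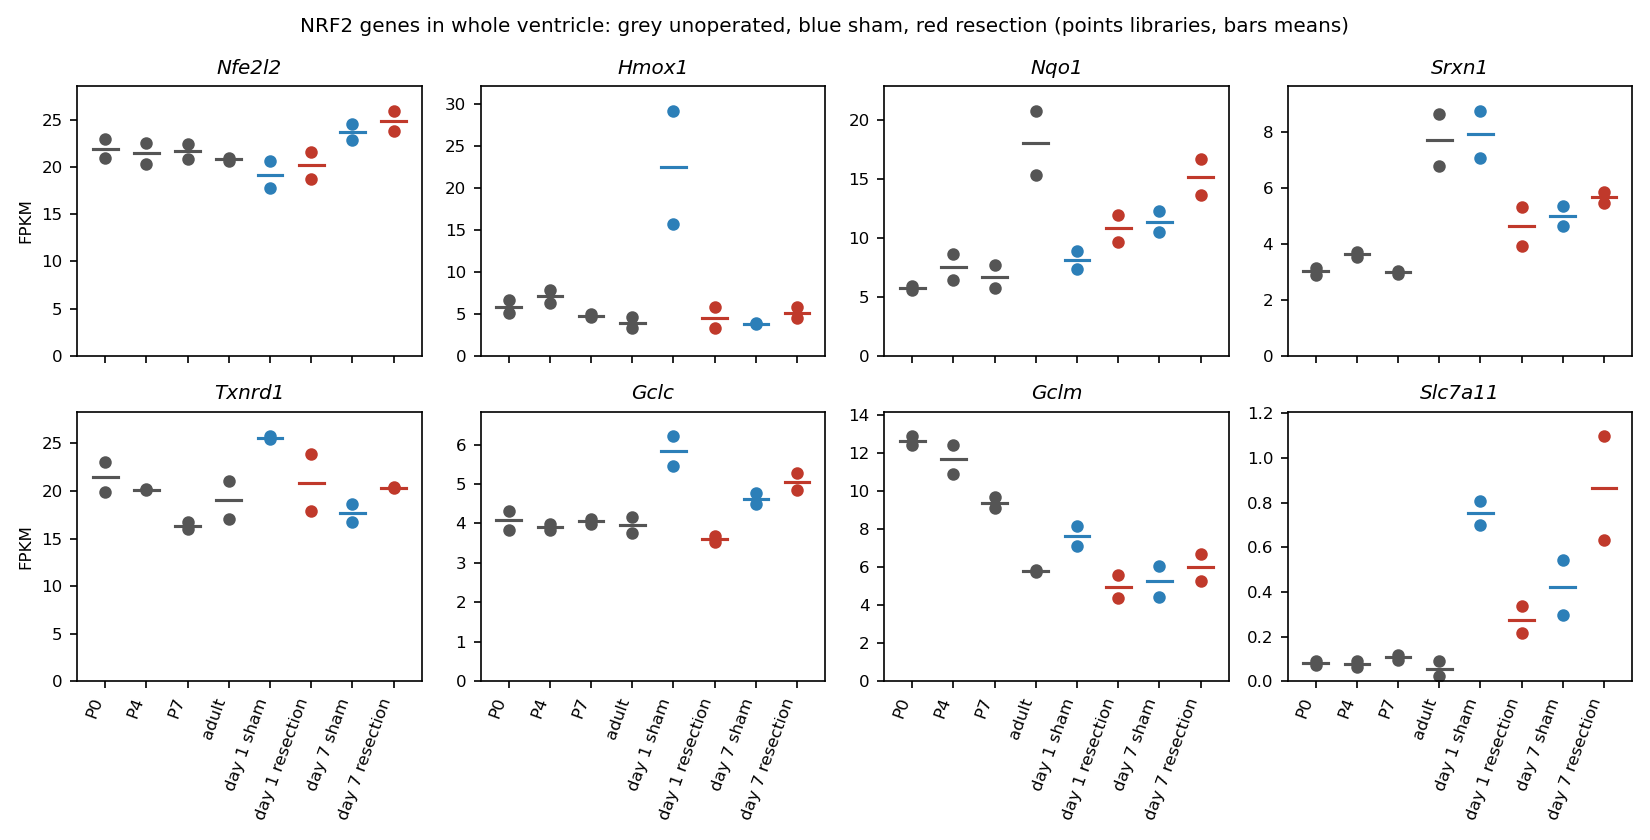
FPKM in each whole ventricle library (points) and group means (bars) for the 8 members other than Gsta1 and Gsta2, with unoperated hearts in grey, sham in blue and resection in red. Hmox1 at day 1 after sham, at 15.7 and 29.2 FPKM, stands above the other 14 libraries; Nqo1 and Srxn1 are higher and Gclm lower in the adult than at P0.

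At day 7 none of the 7 genes was called between resection and sham, where 0.154% of all genes were called and 1556 had an unadjusted p under 0.05. The libraries of 5 genes lay above sham without overlap, as did those of 34.2% of all genes. Hmox1 was at 5.85 and 4.43 FPKM after resection and 3.73 and 3.89 FPKM after sham (0.34, adjusted p = 0.71), and Nqo1 at 16.7 and 13.6 against 12.2 and 10.5 FPKM (0.38, adjusted p = 0.504). Slc7a11, below the filter, was at 1.098 and 0.633 FPKM after resection and 0.545 and 0.297 FPKM after sham, all above the 8 unoperated libraries, which lay between 0.0243 and 0.117 FPKM. The resection effect itself differed between the days for 3 of the 7 genes, all more positive at day 7, where this was so for 5.69% of all genes. The difference was 2.41 ± 0.39 for Hmox1 (adjusted p = 0.00551), 0.67 ± 0.17 for Gclc (adjusted p = 0.0368) and 0.82 ± 0.22 for Srxn1 (adjusted p = 0.0493). Under either scaling, and with any 1 of 6 of the 8 libraries left out, only Hmox1 was called; without the first day 1 sham library the 3 calls stood, and without the second day 1 resected library Txnrd1 was called as well. Of all genes called, 95.9% were more positive at day 7 as deposited, 67.7% with median-of-ratios scaling and 71.1% once quantile-normalized. Of the 63 pathway genes 5 were more positive at day 7, a share near the 5.69% of all genes, with the glutathione transferase gene Gstp1 (1.35, adjusted p = 0.0325) and the ferritin light chain gene Ftl1 (1.26, adjusted p = 0.032) foremost, both uncertain because near-identical copies exist. The macrophage sum was 119 to 160.4 FPKM after resection and 75.4 to 78.3 FPKM after sham at day 7, and its part was not tested.

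In isolated cardiomyocytes the same 7 genes passed the filter and none was called. Between P4 and P0 0.00761% of all 13143 genes, a single gene, was called, and 347 had an unadjusted p under 0.05. Between resection and sham at day 7 1.08% were called, and 1681 had an unadjusted p under 0.05. Srxn1 was at 2.27, 4.30 and 3.51 FPKM after resection and 1.77, 1.11 and 2.71 FPKM after sham (0.62 ± 0.24, adjusted p = 0.291), with overlap. Nqo1 was at 3.79, 3.69 and 9.62 FPKM against 3.26, 2.10 and 3.48 FPKM (0.67 ± 0.29, adjusted p = 0.352), where the resected libraries all lay above sham. Hmox1 was at 3.25, 5.61 and 4.52 FPKM against 4.996, 5.18 and 4.98 FPKM, with overlap (-0.17, adjusted p = 0.794). At P0 Hmox1 was at 1.23, 1.15 and 2.14 FPKM and at P4 at 1.80, 1.55 and 3.55 FPKM. Over the 12 isolated libraries Nfe2l2 ran from 9.21 to 18.5 FPKM with a median of 12.5, Txnrd1 from 8.13 to 14.2 with a median of 10.5, Gclc from 1.60 to 3.32 with a median of 2.42, and Gclm from 8.39 to 12.01 with a median of 8.72. In 16 ventricle libraries the medians were 21.3, 20.2, 4.15 and 6.93 FPKM for the same 4 genes. These include P7, adult and day 1 groups, which have no isolated counterpart. For Gclm the matched groups did not all follow the medians. Its mean was higher in ventricle at P0 (12.67 against 9.419 FPKM) and, with overlap, at P4 (11.68 against 10.79 FPKM). At day 7 it was lower in ventricle after sham (5.267 against 9.738 FPKM) and likewise after resection. Fibroblast markers in the isolated groups summed to between 116 and 2049 FPKM, macrophage markers to between 2.01 and 53.4 FPKM, erythroid markers to between 376 and 72170 FPKM and endothelial markers to between 14.3 and 451 FPKM. At day 7 the erythroid sum was 4952 to 72170 FPKM after resection and 3746 to 5275 FPKM after sham, the fibroblast sum 832 to 2049 and 162 to 1019 FPKM, and the endothelial sum 17.4 to 379 and 390 to 451 FPKM. The part of these markers in the member values was not tested.

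The 0 h explants, dissociated adult cardiomyocytes before culture, were set against adult whole ventricle to show where culture started. The preparations differ in dissociation as well as in cell content, which cannot be told apart here. Hmox1 was higher in the dissociated cells, at 17.8 and 10.4 FPKM against 3.29 and 4.59 FPKM (1.58 ± 0.38, adjusted p = 0.00289), the 1 member called higher where 1.81% of 14962 genes were. Nfe2l2 (14.95 and 5.86 against 21.0 and 20.7 FPKM, -1.06 ± 0.31, adjusted p = 0.0105) and Gclc (2.73 and 1.02 against 3.75 and 4.17 FPKM, -0.85 ± 0.24, adjusted p = 0.0097) were lower, 2 members where 31.7% of all genes were. Without the 0 h library in which Myh6 is at 0, and also without the second adult ventricle library, Hmox1 was the only member called. After median-of-ratios scaling the median of all genes went from -0.37 to 0.01, and Hmox1 (2.13, adjusted p = 8.83e-05), Nqo1 (1.03, adjusted p = 0.00906), Txnrd1 (1.05, adjusted p = 1.26e-05) and Gclm (0.88, adjusted p = 0.0018) were called higher and none lower, where 13.3% and 14.6% of all genes were. Quantile normalization called Hmox1 (1.94, adjusted p = 0.000561), Txnrd1 (0.71, adjusted p = 0.00382) and Gclm (0.81, adjusted p = 0.00469) higher, where 8.16% of all genes were, but not Nqo1 (0.70, adjusted p = 0.13). Of all genes called, 5.4% were higher as deposited, 47.8% with median-of-ratios scaling and 45.2% once quantile-normalized. Of 64 pathway genes 3 were higher, where 1.81% of all genes were, led by Sqstm1 (0.93, adjusted p = 0.00982) and Mafk (0.75, adjusted p = 0.0497), and 17 lower, where 31.7% were, led by Gsta3 (-2.26, adjusted p = 4.62e-06) and Sod3 (-2.17, adjusted p = 6.99e-06). All 11 macrophage and all 7 fibroblast markers were lower in the dissociated cells.

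The members were also compared by their profiles over the 16 group means of log2(FPKM + 1), as descriptions, since these points share preparations and the explants dominate them. Srxn1 and Txnrd1 correlated at r = 0.981 over 16 groups and at 0.789 over the 12 groups without explants. Nfe2l2 and Gclc gave 0.919 and 0.882. Gclm and Nqo1 gave 0.78 over all groups and -0.722 without explants, and Gclm and Srxn1 0.844 and -0.653. Over those 12 group means, which mix preparations and ages, Gclm thus ran against these genes. This did not hold in each comparison. At day 1 Gclm (-0.54) and Srxn1 (-0.67) were both lower after resection, while Nqo1 (0.37) lay higher without passing. Hmox1 and Nqo1 gave 0.895 and 0.052. The profiles of 10748 gene models were compared with those of the members. Members and models with placeholder symbols, such as Gm numbers and Rik names, were left out of the ranking. Among the rest, the profiles most like the mean of the members were those of Usp53 (r = 0.988), Rhbdd1 (0.987), Trib3 (0.981), Heatr1 (0.98) and Spire1 (0.98). Nearest to single members were Rab33b for Nfe2l2 (0.985), Cdkn1a for Hmox1 (0.977), Sqstm1 for Nqo1 (0.975) and Sesn2 for Gclm (0.985).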

How the data were processed

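The authors deposited 1 table of FPKM values, a column for each library, in which 36128 rows carry 32750 different symbols. The submitters' processing notes name TopHat 1.3.2, Bowtie 0.12.7, Cuffdiff and Cufflinks 1.2.1, and mouse build mm9; how multiply mapped reads and strand were treated is not given in the sources used here. Low values did not resolve into whole reads, so depth is unknown and no count model was used. From these values log2(FPKM + 1) was fitted as group means with limma 3.58.1 (R 4.3.3) over 12 isolated, 16 ventricle or 8 explant libraries, and over all 36 for dissociated cells against ventricle. Genes at 1 FPKM or more in at least 2 libraries were tested, with a variance trend, two-sided p-values and Benjamini-Hochberg adjustment. The fit was tested on simulated data. Each alternative changed 1 choice: quantile normalization, median-of-ratios scaling, the replicate block, a pseudocount of 0.1, testing without the filter, or 1 library left out.

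The 10 members, the pathway lists (72 genes, 70 in the table) and the marker lists (50 genes, 45 in the table) were chosen with earlier results of these data known. Not analysed here were Nfe2l1, Txnrd2, Actn2, Ttn, Col1a2 and Pecam1. Adgre1 is listed under its older symbol Emr1, and 1 of the 50 names is that repeat. Among pathway genes the text names up to 2 per comparison and direction with the largest called change and at least 5 FPKM in 1 group. The others named were chosen after their values were seen: Prdx2, Prdx6, Mafg, Keap1 and Gss, and Txn1 and Sqstm1 at 72 h. Likeness is Pearson's r over the 16 group means. Replicate numbers paired the explants, since all 12 pairs of same-numbered explant libraries deviated together (r from 0.385 to 0.617, median 0.526). They did not pair ventricle (4 of 56 pairs above 0.1) or isolated cells (6 of 18). With 2 libraries per group, as in explants and ventricle, the deviations from the group mean mirror each other. Each r among libraries numbered 1 therefore recurs among those numbered 2, and the pairs are not all separate evidence.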

Additional observations from a re-analysis of the deposited data

Results flagged for a closer look

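For 3 genes the effect of resection in whole ventricle differed between day 1 and day 7 by the test of the difference itself (limma, adjusted p). Hmox1 differed by 2.41 on the log2 scale (adjusted p = 0.00551), Gclc by 0.67 (adjusted p = 0.0368) and Srxn1 by 0.82 (adjusted p = 0.0493), each more positive at day 7. Over all genes 5.69% were called more positive at day 7. Under either scaling Hmox1 was the only member called. For each of the 3 genes both day 1 sham libraries lay above both day 1 resected ones, as did those of 39% of all genes. The day 1 sham libraries also held the most neutrophil marker signal of any ventricle group, 89.9 to 161.5 FPKM summed over 7 genes, and its part was not tested.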

How the results depend on the processing

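Direction of called members was kept under the alternatives with the exceptions here. Between 24 and 72 h, 5 members were called, 2 with no filter and 8 with the replicate block. In adult ventricle against P0, 3 were called and 5 after median-of-ratios scaling, where Nfe2l2 (0.371) and Gclc (0.34) turned from lower without a call to higher; Gclc did so after quantile normalization too (0.404). For day 1 resection 4 members were called, but 1 after either scaling, and for the difference between days 3 were called, but 1 after either scaling. With 1 library left out, the members called ranged from 2 to 5 at 24 h, 9 to 10 at 48 h and at 72 h, 1 to 4 from 24 to 72 h, 3 to 3 in the adult, 1 to 4 for day 1 resection, 1 to 4 for the difference between days and 1 to 3 for dissociated cells against ventricle, and 0 to 0 in the comparisons with no call. A lone library was then assumed to vary like the other groups. The cause of these changes was not tested.

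Counts of genes called moved by over 1.5 times as follows, first by setting. At 24 h 2194 became 1057 with no filter, 1059 after quantile normalization and 4899 with the replicate block. At 48 h 5164 became 3399 (median-of-ratios) and 3091 (quantile), and at 72 h 6837 became 4264 and 4227. From 24 to 72 h 1246 became 458 with no filter, 817 (median-of-ratios) and 4282 with the replicate block. P4 ventricle went from 193 to 121 with a pseudocount of 0.1 and 312 (quantile), day 1 resection from 1468 to 881 (quantile), day 7 from 22 to 1 (pseudocount) and 75 (no filter), and the difference between days from 849 to 322 (median-of-ratios) and 232 (quantile). Isolated P4 went from 1 to 6 (no filter), 3 (quantile) and 0 (median-of-ratios, and replicate block), isolated day 7 from 142 to 265 (no filter), and dissociated cells against ventricle from 5017 to 2700 (quantile).

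With 1 library left out these counts ranged from 56 to 261 at 24 h, 1761 to 3461 at 48 h, 58 to 670 from 24 to 72 h, 33 to 231 at P4, 584 to 1344 at P7, 225 to 3042 for day 1 resection, 5 to 46 for day 7, 192 to 2675 for the difference between days, 0 to 1 and 25 to 756 for isolated P4 and day 7, and 2829 to 4816 for dissociated cells against ventricle. At 72 h and in the adult they moved by less than 1.5 times.

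In ventricle and isolated cells the samples share only a number, and the replicate block left 3 members called for day 1 resection and 2 for the difference between days. The unknown depth and 2 libraries per group limit what small differences could be seen.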
